A study of Mus musculus with 5 samples.

Results

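The 59 genes described here are the mouse cadherins with a numbered Cdh symbol and the protocadherins measured in mouse embryonic fibroblasts, out of 21563 genes tested. They were taken from the array annotation by symbol, with the brightest of 64 probe sets standing for each gene. They comprise 23 cadherins, 24 clustered protocadherins (1 alpha, 22 beta and 1 gamma entry) and 12 non-clustered protocadherins. Mouse embryonic fibroblasts, labelled MDR2-/- or MDR2+/+ and derived from littermate embryos, had been serially passaged on a 3T3 schedule and were collected at passage 40. The comparison is of 3 Mdr2 knockout arrays (replicates 1, 2 and 3) with 2 wild-type arrays (replicates 2 and 3). The gene called Mdr2 in the labels is now Abcb4, and its product moves phosphatidylcholine into bile. The labels do not tell if the replicates came from separate embryos or cultures. The p-values therefore speak for the variation among these 5 arrays alone, and that variation may be technical.

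Cadherins are transmembrane proteins that hold neighbouring cells together in a calcium-dependent way. Classical cadherins bind catenins inside the cell, which link them to actin at adherens junctions, and fibroblasts typically carry N-cadherin and cadherin 11 where epithelia carry E-cadherin. Clustered protocadherins are encoded in tandem arrays and are best known for giving neurons individual surface identities, and several non-clustered protocadherins act in cell sorting during development.

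Values are log2 signals as deposited, so a difference of 1 is a 2-fold change, and signals of different probe sets are not compared with each other. Exactly equal values on different arrays are common in them. Only 7657 of the 21563 genes and 15 of the 59 members had 5 distinct values. Such ties can lower a spread and can decide whether 2 groups touch or overlap. The median signal of all tested genes lay between 4.31 and 4.34 on the knockout arrays and between 4.28 and 4.29 on the wild-type arrays. The 95th percentile of 45 background probe sets, which match no mouse sequence, lay between 5.87 and 6.08 on the knockout arrays and at 5.71 and 5.88 on the wild-type arrays, and serves below as the background level. Signals near it compress a fold change. The median of these 45 probe sets was 2.14 on every array, and 13851 of the 21563 tested genes lay below the 95th percentile on every array. A signal below this level therefore does not show that a gene was not expressed. Abcb4 itself was at 6.002, 4.628 and 5.744 on the knockout arrays, against 4.054 and 3.949 on the wild-type arrays (log2 fold change 1.46 ± 0.50, SE; limma adjusted p = 0.357), so its signal did not follow the label, although the disrupted part of the gene is not stated. Xist was at 7.48 ± 0.18 (SD, n = 3) on the knockout arrays and 3.08 ± 0.14 (SD, n = 2) on the wild-type arrays, and the Y-linked Ddx3y was at 2.41 ± 0.18 and 6.80 ± 0.22. Genotype label and sex-linked expression therefore cannot be told apart in any difference below. Of 11 fibroblast markers 9 were above background on all 5 arrays, among them Col1a1, Vim and Pdgfrb. Of the 11 markers 3 had higher and 8 lower means in knockout cells, 2 and 6 of them without overlap (10.6% and 14.5% of all genes). The fibroblast surface marker Thy1 was among the higher ones, at 10.55, 9.70 and 10.16 on the knockout arrays, against 5.60 and 5.22 on the wild-type arrays (limma adjusted p = 0.0522). That adjusted p was 0.0132 after a second quantile normalization, 0.0194 after array medians were subtracted and 0.0542 with a trended prior variance. It was 0.0241 without genes below the 40th percentile and 0.0151 without genes of equal values.

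Most of the 59 genes were below background, including most of those whose group means lay farthest apart. No member passed an adjusted p of 0.05 in limma's moderated test across all genes (0 of 59, where 0.301% of all genes passed, 0.153% higher and 0.148% lower), and 3 members were higher and 3 lower at an unadjusted p under 0.05. Over all genes those unadjusted shares were 5.37% and 8.32%. In 6 members, against 3.92% of all genes, the groups did not overlap and the means lay at least 2-fold apart. Cdh1, Cdh17 and Cdh18 were higher in knockout cells (2.14% of all genes were higher by this rule) and Cdh2, Pcdh7 and Pcdhb13 were lower (1.78% of all genes). That is 3 of 59 members in each direction. Of these 6, only Cdh2 and Pcdh7 were above background on all 5 arrays, so for the other 4 the log2 difference is one of signals mostly below background and no exact fold is read from it. The median log2 fold change was 0 for the cadherins, -0.013 for the clustered and -0.026 for the non-clustered protocadherins, against 0 over all genes. With genes below the 40th percentile left out, the clustered median was 0.047 and the non-clustered median -0.47. The latter was the median of Pcdh7, Pcdh17, Pcdh18 and Pcdh19 alone, the non-clustered genes that this filter kept. Only 6 members (10.2%) were above background on all 5 arrays, against 24.4% of all tested genes. These 6 were Cdh2, Cdh3, Cdh11, Cdh13, Pcdh7 and Pcdh18. In all, 50 members were below background on every array, 8 had equal values on all 5 arrays and 35 (59.3%) differed by less than 0.1 between group means. Over all 21563 genes these counts were 13851, 1584 and 10721 (49.7%).

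**Figure D1:**
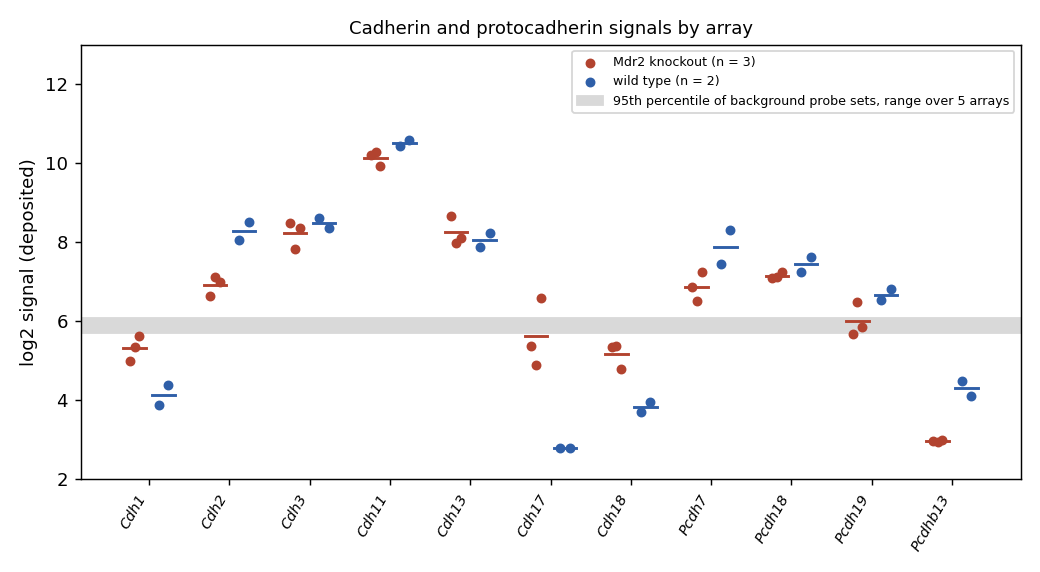
Log2 signal of 11 cadherins and protocadherins on each array, knockout arrays (red) left of wild-type arrays (blue), with bars at the group means and a grey band for the background level over the arrays. Cdh2, Pcdh7 and Pcdhb13 lay lower on all knockout arrays and Cdh1, Cdh17 and Cdh18 higher, while Cdh3 and Cdh13 overlapped between the groups.

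Among the 5 type I classical cadherins, the N-cadherin gene Cdh2 was lower in knockout cells and the E-cadherin gene Cdh1 higher. Cdh2, the main classical cadherin of mesenchyme and neural tissue, was at 6.64, 7.13 and 6.98 on the knockout arrays, against 8.05 and 8.50 on the wild-type arrays. All 3 knockout values lay below both wild-type values and all 5 were above background. The difference was -1.36 ± 0.23 (limma log2 fold change ± SE), or 2.57-fold lower, and missed the threshold (adjusted p = 0.157). Leaving out each array in turn kept it between -1.58 and -1.14. Its probe set is annotated to chromosome 18, 16747386 to 16967755 on the minus strand. Coordinates are those of the array annotation, taken as mouse build NCBIM37.

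Cdh1, the epithelial cadherin, was at 4.99, 5.34 and 5.62 on the knockout arrays, against 3.88 and 4.38 on the wild-type arrays. The groups did not overlap, but every value lay below background. The log2 fold change was 1.19 ± 0.28 (SE; limma adjusted p = 0.223). Of 12 markers of epithelium 0 passed limma's test, 0 reached an unadjusted p under 0.05 and 0 were above background on any array. Their mean signal was 3.49 to 3.62 on the knockout arrays and 3.50 to 3.54 on the wild-type arrays, and Epcam, an epithelial adhesion molecule, was at 2.96 on all 5 arrays. The keratin gene Krt8, named after its values were seen, was at 4.97, 5.68 and 5.33 on the knockout arrays, against 4.66 and 4.98 on the wild-type arrays, with overlapping groups. Cdh1 is placed on chromosome 8, from 109127268 to 109194146 on the plus strand.

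Cdh3, which encodes P-cadherin and lies beside Cdh1 on chromosome 8, was well above background in both groups. It was at 8.48, 7.82 and 8.37 on the knockout arrays, against 8.61 and 8.37 on the wild-type arrays (log2 fold change -0.26 ± 0.25, SE; limma adjusted p = 0.651). The groups overlapped, and the difference was -0.061 without knockout replicate 2 and -0.14 without wild-type replicate 2. Cdh15, the muscle cadherin, was at 3.23 ± 0.05 (SD, n = 3) in knockout cells and 3.20 ± 0.01 (SD, n = 2) in wild-type cells, below background throughout, and 0 of 8 skeletal muscle markers passed limma's test, reached an unadjusted p under 0.05 or was above background on any array. Cdh4, the retinal cadherin, was likewise below background, between 3.72 and 3.82.

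Among the 13 type II classical cadherins, Cdh11 was the only one above background. Cdh11, a cadherin of mesenchymal and osteoblastic cells, was at 10.21, 10.28 and 9.94 on the knockout arrays, against 10.44 and 10.60 on the wild-type arrays. The knockout values were all lower, by a log2 fold change of -0.37 ± 0.14 (SE; limma adjusted p = 0.388). Cdh11 has pseudogene copies on the array that could share its signal. The 4 probe sets annotated as Cdh11 pseudogenes also had lower means in knockout cells, with log2 fold changes between -1.12 and -0.22.

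Cdh18, a type II cadherin known mainly from brain, was at 5.34, 5.38 and 4.80 on the knockout arrays, against 3.71 and 3.96 on the wild-type arrays. The groups did not overlap and all values lay below background (log2 fold change 1.34 ± 0.24, SE; limma adjusted p = 0.170). A second, dimmer probe set, whose annotated span includes that of the brighter one, gave 5.04, 4.98 and 4.50 in knockout cells against 3.76 and 3.98 in wild-type cells, a log2 difference of 0.97. Among 10 markers of neurons and neural progenitors 0 passed, 0 reached an unadjusted p under 0.05 and 9 were below background on every array. Their mean signal was 3.52 to 3.63 on the knockout arrays and 3.32 to 3.41 on the wild-type arrays, so it was slightly higher in the same arrays, and the part of this in the Cdh18 difference was not tested. The marker that was above background, Stmn2, which encodes a microtubule regulator, was at 9.09, 7.54 and 9.10 in knockout cells against 6.82 and 7.17 in wild-type cells (limma adjusted p = 0.426). Its log2 fold change of 1.58 was the widest of these markers, whose median was 0.05, and 6 of the 10 differed by less than 0.1. The higher mean of the markers thus rested mainly on Stmn2.

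The window of 300 bases around the Cdh18 start is shown because Cdh18 is among the 6 differing members. It was searched for the E-box CAGGTG, which reads CACCTG on the other strand and is bound by repressors of E-cadherin of the Snail and Zeb families. The RefSeq sequence (GRCm38.p6, chr15:23036213-23036512, plus strand) held no match, so no letters are in capitals.
Cdh18: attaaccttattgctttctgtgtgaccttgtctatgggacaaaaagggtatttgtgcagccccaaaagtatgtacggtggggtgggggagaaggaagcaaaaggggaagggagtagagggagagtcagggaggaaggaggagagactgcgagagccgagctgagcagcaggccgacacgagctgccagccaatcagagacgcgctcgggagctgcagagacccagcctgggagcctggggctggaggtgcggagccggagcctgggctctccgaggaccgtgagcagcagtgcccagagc

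Cdh5, the cadherin of endothelial junctions, was at 3.25 on all 5 arrays, and 0 of 10 endothelial markers passed limma's test, reached an unadjusted p under 0.05 or was above background on any array. Of the other 10 type II cadherins (Cdh6 to Cdh10, Cdh12, Cdh19, Cdh20, Cdh22 and Cdh24), none was above background on any array and 9 differed by less than 0.1. Cdh10 had the widest difference among them, at 2.72, 2.83 and 3.57 on the knockout arrays, against 2.47 and 2.72 on the wild-type arrays. That difference rested mainly on knockout replicate 3, and the groups touched.

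Outside the classical cadherins, Cdh17 stood apart between the groups. Cdh17, the liver-intestine cadherin, was at 5.37, 4.89 and 6.58 on the knockout arrays, against 2.78 and 2.79 on the wild-type arrays. The knockout values varied widely between arrays, all lay above both wild-type values, and only knockout replicate 3 was above background. The log2 fold change was 2.83 ± 0.59 (SE), with both wild-type values far below background, and missed the threshold (limma adjusted p = 0.204). Without knockout replicate 3 it was 2.34. Cdh17 is placed on chromosome 4, from 11685362 to 11745042 on the plus strand. Cdh13, the T-cadherin that is anchored to the membrane by a lipid and lacks a cytoplasmic tail, was at 8.66, 7.98 and 8.11 on the knockout arrays, against 7.88 and 8.23 on the wild-type arrays. The groups overlapped (log2 fold change 0.20 ± 0.27, SE; limma adjusted p = 0.712), and without knockout replicate 1 the difference was -0.0074. Cdh16, a kidney cadherin, Cdh23, a component of the inner ear tip link, and Cdh26 were all below background, between 2.74 and 3.44.

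**Figure D2:**
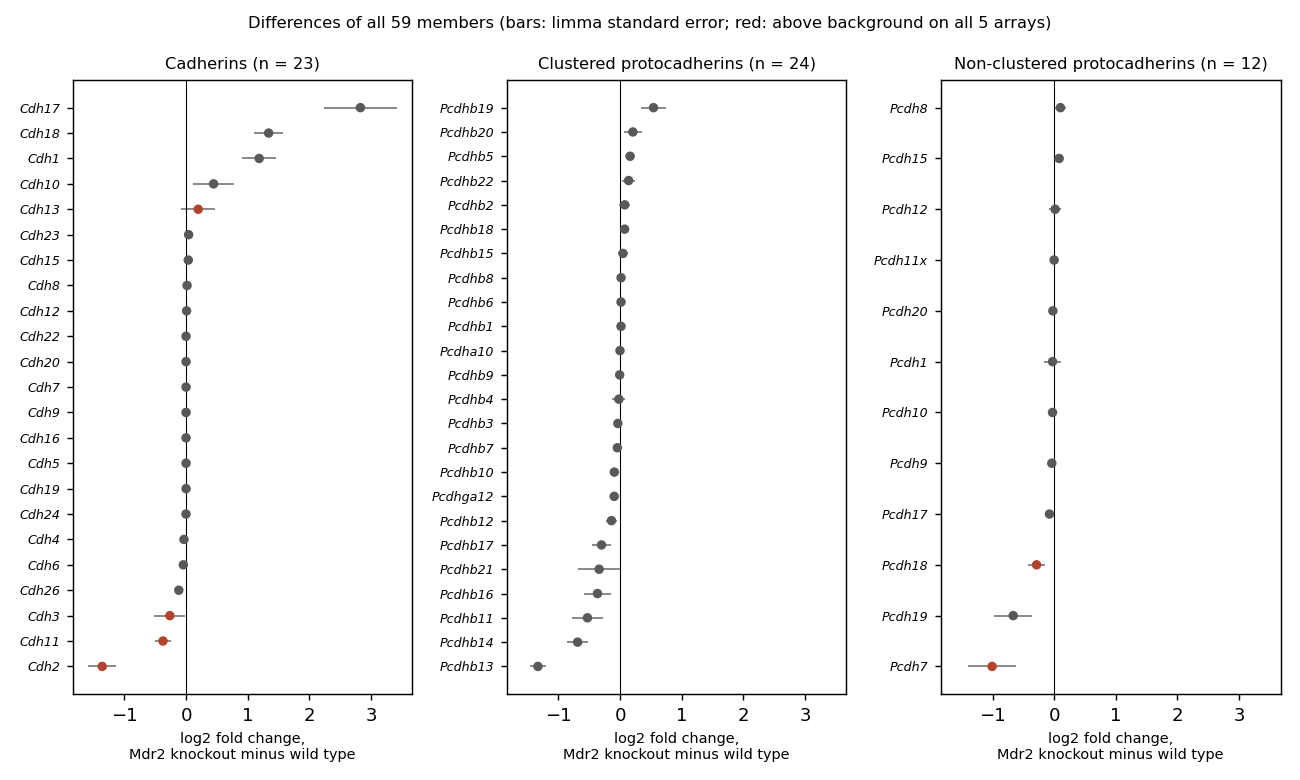
Log2 fold change, Mdr2 knockout minus wild type, of all 59 members in 3 panels by class, with limma standard errors as bars and members above background on all 5 arrays in red. Of the 59 members 35 lie within 0.1 of 0, and Cdh17 stands farthest to the right at 2.83 and Cdh2 farthest to the left at -1.36.

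Among the 12 non-clustered protocadherins, the ones that could be measured above background were all lower on average in knockout cells. Pcdh7, whose frog counterpart acts in adhesion of the embryonic ectoderm, was at 6.86, 6.52 and 7.24 on the knockout arrays, against 7.44 and 8.32 on the wild-type arrays. The groups did not overlap, although the wild-type arrays also differed from each other. The log2 fold change was -1.01 ± 0.38 (SE; limma adjusted p = 0.415), and it was -0.57 without wild-type replicate 3. Pcdh7 is placed on chromosome 5, from 58109339 to 58520590 on the plus strand.

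The window around the Pcdh7 start, shown because Pcdh7 is the non-clustered protocadherin that differed most, held 1 E-box (RefSeq, GRCm38.p6, chr5:57717831-57718130, plus strand). The capitals mark it, and it begins at base 33 counted from the start as base 1.
Pcdh7: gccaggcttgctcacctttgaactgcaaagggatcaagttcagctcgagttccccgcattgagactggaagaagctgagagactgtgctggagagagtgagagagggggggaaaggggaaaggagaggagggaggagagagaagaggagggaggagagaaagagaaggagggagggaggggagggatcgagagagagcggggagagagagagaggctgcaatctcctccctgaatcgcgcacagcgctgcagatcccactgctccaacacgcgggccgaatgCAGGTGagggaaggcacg
Of the 59 members 22 had such a window of 300 bases. The E-box was in 5 of their 25 windows, against 20.2% of 32851 windows over all genes. Those 5 were windows of Cdh7, Pcdh7 and Pcdh15 only, with more than 1 from Cdh7. Cdh1, Cdh2, Cdh17 and Pcdhb13 had no such window, so their starts were not searched. This is a description of letters and not of binding sites.

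Pcdh18, of the delta group of protocadherins, was at 7.10, 7.11 and 7.25 on the knockout arrays, against 7.25 and 7.62 on the wild-type arrays (log2 fold change -0.28 ± 0.14, SE; limma adjusted p = 0.535). Its highest knockout value equalled the lower wild-type value, and the difference was between -0.47 and -0.099 when 1 wild-type array was left out. Pcdh19, an X-linked protocadherin that forms an adhesion complex with N-cadherin in zebrafish, was at 5.67, 6.49 and 5.86 on the knockout arrays, against 6.52 and 6.81 on the wild-type arrays. The groups did not overlap, but the highest knockout value was close to the lower wild-type value (log2 fold change -0.66 ± 0.31, SE; limma adjusted p = 0.517). Both wild-type arrays and only knockout replicate 2 were above background. Pcdh19 is on the X chromosome, and Xist also differed between the groups as given above; the part of this in the Pcdh19 difference was not tested. The other X-linked member, Pcdh11x, was at 2.09 on all arrays.

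The remaining 9 non-clustered protocadherins were below background on every array. Pcdh12, an endothelial protocadherin, had a log2 fold change of 0.02, Pcdh15, the partner of Cdh23 in the tip link, of 0.08, and Pcdh17 of -0.08. The other 6 (Pcdh1, Pcdh8, Pcdh9, Pcdh10, Pcdh11x and Pcdh20) ranged from -0.04 to 0.10. Second probe sets of Pcdh8, Pcdh9 and Pcdh15 were dimmer and differed by 0.06, 0 and -0.04 between group means.

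The clustered protocadherins lie side by side on chromosome 18, and on these arrays the beta genes were measured 1 by 1 while the alpha and gamma clusters had 1 entry each. No member of the 24 was above background on all arrays, and 23 were below it on every array. Pcdhb16 passed it on wild-type replicate 3 alone. The beta genes are close copies of each other, so probe sets may share signal. Of the 22 beta genes 12 had lower and 10 higher means in knockout cells. In 1 of these 22 the groups did not overlap with knockout cells higher (10.6% of all genes) and in 3 with knockout cells lower (14.5% of all genes). The lower count is near the share over all genes, and the higher count is below it.

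Pcdhb13 had the lowest p of all members. It was at 2.97, 2.94 and 2.99 on the knockout arrays, against 4.49 and 4.11 on the wild-type arrays. The knockout arrays were nearly equal to each other, both wild-type values lay above all of them, and all 5 values were below background. The log2 fold change was -1.33 ± 0.13 (SE; limma adjusted p = 0.0820). Over the alternatives the adjusted p ran from 0.0248 to 0.418. It was below 0.05 after a second quantile normalization (0.0248), after array medians were subtracted (0.0290) and once genes of equal values were dropped (0.0294). It was 0.112 with a robust prior variance, 0.418 with the replicate number as a block and 0.152 to 0.285 without any 1 knockout array. Without either wild-type array (0.0447 and 0.0421) the spread came from the nearly equal knockout arrays alone, with the lone wild-type array assumed to vary like them. It is placed on chromosome 18, from 37602171 to 37605863 on the plus strand.

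Its neighbours on either side also had lower means in knockout cells. Pcdhb14 was at 4.20, 3.73 and 3.93 on the knockout arrays, against 4.59 and 4.70 on the wild-type arrays (log2 fold change -0.69 ± 0.17, SE; limma adjusted p = 0.231). Pcdhb11 was at 3.50, 3.06 and 3.50 on the knockout arrays, against 3.61 and 4.16 on the wild-type arrays (log2 fold change -0.53 ± 0.25, SE). In both the groups did not overlap. Pcdhb12, between them, was at 2.46 on every array except wild-type replicate 2, at 2.74. All 4 of Pcdhb11 to Pcdhb14 were thus lower, with a median log2 fold change of -0.61, a stretch picked out after the values were seen. Across Pcdhb1 to Pcdhb10, 5 were lower and 5 higher and all lay within -0.09 to 0.16.

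Farther along the cluster the direction was mixed. Pcdhb19 was at 4.74, 4.96 and 4.42 on the knockout arrays, against 4.03 and 4.31 on the wild-type arrays, the only beta gene higher without overlap (log2 fold change 0.54 ± 0.21, SE; limma adjusted p = 0.416). Pcdhb16 was at 5.35, 5.59 and 5.33 on the knockout arrays, against 5.50 and 6.09 on the wild-type arrays, and the groups overlapped (log2 fold change -0.37 ± 0.22, SE, or -0.073 without wild-type replicate 3). They also overlapped in Pcdhb17, with means of 4.89 ± 0.11 (SD, n = 3) in knockout cells and 5.20 ± 0.28 (SD, n = 2) in wild-type cells. Pcdhb15, Pcdhb20 and Pcdhb22 had log2 fold changes of 0.05, 0.21 and 0.14 with overlapping groups. From Pcdhb15 to Pcdhb22, 5 were higher and 3 lower.

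**Figure D3:**
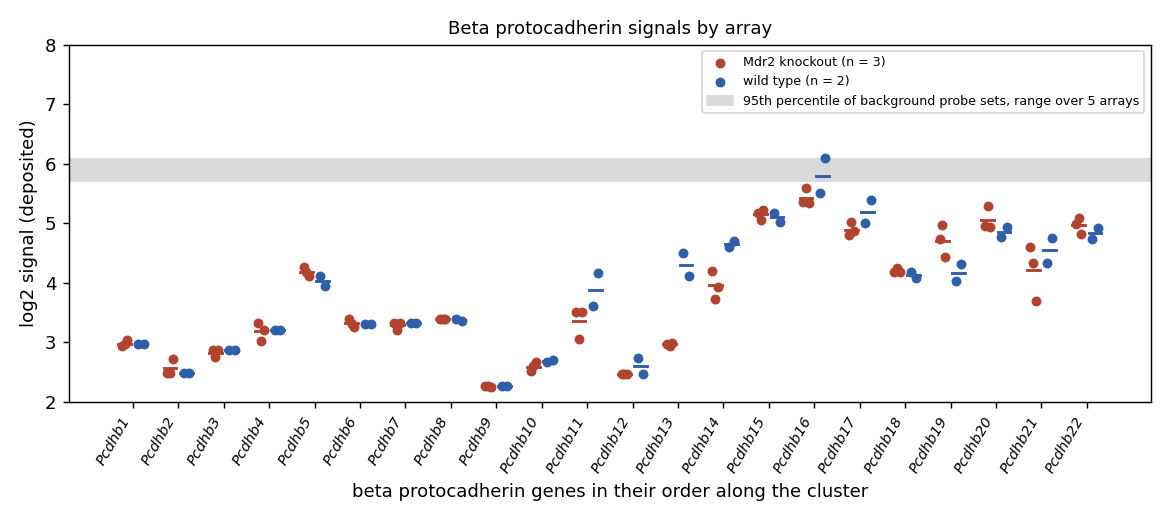
Log2 signal of the 22 beta protocadherin genes on each array in their order along the cluster, knockout (red) left of wild type (blue), with bars at group means and the background level as a grey band. Pcdhb11 to Pcdhb14 lie lower in knockout cells on average, Pcdhb19 higher, and only 1 point, of Pcdhb16, reaches the band.

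The entries named Pcdha10 and Pcdhga12 have 95 and 178 probes and are annotated over 37089838 to 37347315 and 37821599 to 38001616 on chromosome 18, spans far longer than those of the beta entries. They may therefore carry signal of several alpha or gamma genes. Pcdha10 was between 2.61 and 2.72 on the knockout arrays and at 2.67 on both wild-type arrays. Pcdhga12 was at 4.06, 4.06 and 3.93 on the knockout arrays, against 4.08 and 4.14 on the wild-type arrays, a difference of -0.10. Neither entry was above background.

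Among catenins, nectins and adaptors of the adherens junction, 18 of 27 had lower means in knockout cells and 7 had higher means. Of these 27 genes 0 passed limma's test, with 1 higher and 12 lower at an unadjusted p under 0.05, against 5.37% and 8.32% of all genes. In 14 of the 27 the groups did not overlap with knockout cells lower, against 14.5% of all genes, and in 2 (Nectin3 and Ptprk) with knockout cells higher. The list holds many bright genes, 12 of 27 being above background on all arrays. Among the 5269 tested genes above background on all arrays, 1531 were lower without overlap and 937 were lower at an unadjusted p under 0.05. Both are larger shares than those over all genes, so the shares over all genes understate what bright genes show. The median log2 fold change of these bright genes was -0.044. The median log2 fold change of the list was -0.33, against 0 over all genes, and the list's mean signal was 6.03 to 6.12 on the knockout arrays and 6.41 and 6.44 on the wild-type arrays. Jup, which encodes plakoglobin, a catenin shared by adherens junctions and desmosomes, was at 6.03, 6.57 and 5.80 on the knockout arrays, against 7.40 and 7.62 on the wild-type arrays (log2 fold change -1.38 ± 0.28, SE; limma adjusted p = 0.195). Ctnnal1, an alpha-catenin relative, was lower as well (-1.09 ± 0.28 on the log2 scale, SE; adjusted p = 0.247).

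The core catenins differed among themselves; they are named here after their values were seen. Ctnna1, the alpha-catenin that couples the complex to actin, was at 7.85, 7.98 and 8.03 on the knockout arrays, against 8.71 and 8.99 on the wild-type arrays (log2 fold change -0.90 ± 0.11, SE; limma adjusted p = 0.115). Ctnnb1, beta-catenin, was at 9.08, 9.29 and 9.17 on the knockout arrays, against 9.12 and 9.17 on the wild-type arrays, with overlapping groups (log2 fold change 0.03 ± 0.07, SE). Ctnnd1, the delta-catenin family member that stabilises cadherins at the membrane, had a log2 fold change of -0.33. Tjp1, the scaffold ZO-1, was at 7.09, 7.14 and 7.12 on the knockout arrays, against 7.63 and 7.52 on the wild-type arrays (adjusted p = 0.0777).

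**Figure D4:**
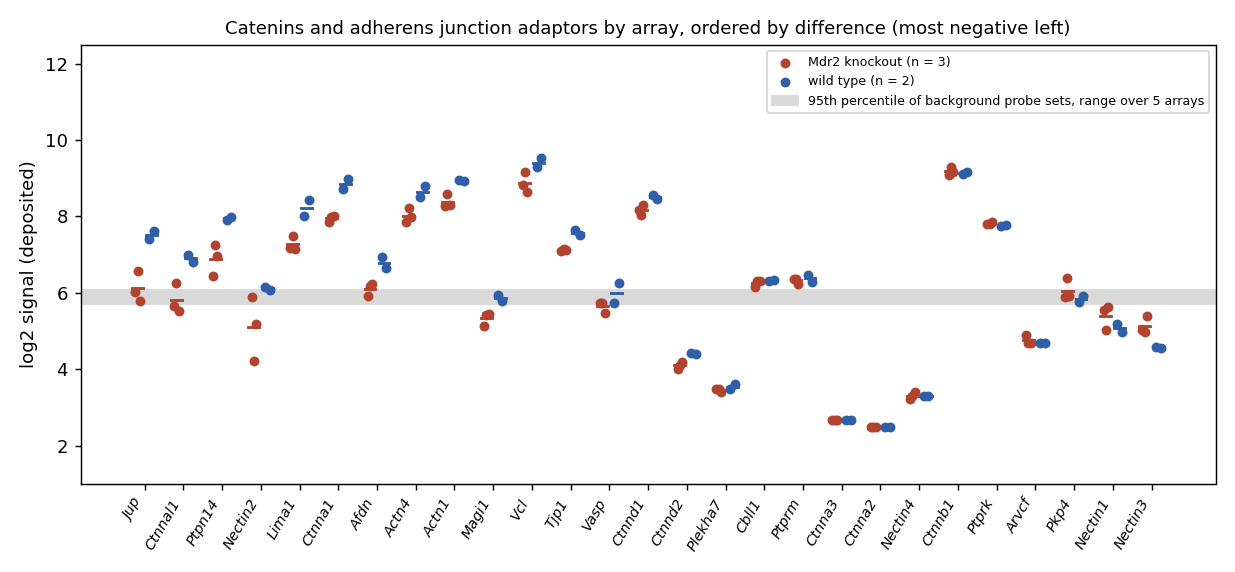
Log2 signal of 27 catenins and adherens junction adaptors on each array, ordered from the most negative difference (left) to the most positive, knockout (red) left of wild type (blue), with bars at group means and the background level as a grey band. From Jup to Ctnnd2 all knockout points lie below the wild-type points except for Vasp, where the groups touch, and Ctnnb1 shows no separation.

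Other branches of the cadherin superfamily had members in both directions. Of 18 genes 0 passed limma's test, and 1 was higher and 1 lower at an unadjusted p under 0.05 (median log2 fold change 0.03). Fat1, a giant protocadherin-like protein, was at 7.56, 7.72 and 7.10 on the knockout arrays, against 8.65 and 8.70 on the wild-type arrays (log2 fold change -1.22 ± 0.22, SE; adjusted p = 0.174). Cdhr1, a photoreceptor cadherin, was at 5.10, 4.72 and 5.45 on the knockout arrays, against 3.83 on both wild-type arrays, below background (log2 fold change 1.26 ± 0.25, SE; adjusted p = 0.189). Of 15 desmosomal cadherins and plaque genes 0 passed, 0 were above background on any array, and 1 was higher and 1 lower at an unadjusted p under 0.05. Those were the plakophilins Pkp1 (1.09 ± 0.26, SE) and Pkp2 (-1.71 ± 0.24, SE), and the list's median was 0.

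Among 10 repressors of E-cadherin, Snai2 rose in knockout cells. Snai2, which encodes the zinc-finger repressor Slug, was at 10.34, 10.10 and 10.21 on the knockout arrays, against 7.42 and 7.66 on the wild-type arrays. The groups lay more than 2 apart and the log2 fold change was 2.68 ± 0.12 (SE; limma adjusted p = 0.0288). The call ended without knockout replicate 1, 2 or 3 (adjusted p = 0.138, 0.0727 and 0.189) and with the replicate number as a block (0.351). Without wild-type replicate 2 or 3 the adjusted p was 0.0579 and 0.0479, with the spread taken from the knockout arrays alone. The other 9 did not pass; 3 of the 10 were higher and 1 lower at an unadjusted p under 0.05, and the median was 0.21. Those were Snai2, Twist2 (0.98 ± 0.12, SE) and Klf8 (0.48 ± 0.15) on the higher side and the E-protein gene Tcf4 (-0.92 ± 0.12) on the lower side, the last 3 named after their values were seen. Snai1, Zeb1, Zeb2 and Twist1, named after their values were seen, overlapped between groups, with log2 fold changes of 0.46, 0.00, 0.02 and -0.02. Cdh1 was higher by 1.19, below background, on the arrays on which Snai2 was higher. Whether these differences are related was not tested.

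Proteases that cut cadherins, factors that act on the clustered protocadherin locus and cytoplasmic partners of protocadherins did not pass over all genes on the values as deposited. For 17 proteases 1 was higher and 1 lower at an unadjusted p under 0.05, with a median of 0.01. Those were 2 parts of gamma-secretase, named after their values were seen, Aph1a (0.63 ± 0.08, SE) and nicastrin, Ncstn (-0.49 ± 0.07). Mmp3, stromelysin, varied most, at 5.34, 3.56 and 5.53 on the knockout arrays, against 3.02 and 2.42 on the wild-type arrays, and Pcsk6, a proprotein convertase, had a log2 fold change of -0.81. For 18 locus regulators, which include the insulator protein gene Ctcf, cohesin subunits and DNA methyltransferases, 1 was higher and 1 lower at an unadjusted p under 0.05, with a median of 0.01. Those were the cohesin subunit gene Stag1 (0.43 ± 0.14, SE), named after its values were seen, and Dnmt3a. The log2 fold change of the maintenance methyltransferase gene Dnmt1 was 0.55 ± 0.21, and that of the de novo methyltransferase gene Dnmt3a -0.75 ± 0.23 (SE; limma adjusted p = 0.412 and 0.309). For 15 cytoplasmic partners 1 was higher and 2 lower at an unadjusted p under 0.05, with a median of -0.11. Wasf1, a subunit of the actin-nucleating WAVE complex, was at 6.37, 6.52 and 6.33 on the knockout arrays, against 4.87 and 5.11 on the wild-type arrays (log2 fold change 1.42 ± 0.11, SE; adjusted p = 0.0596). Cyfip2, of the same complex, had a log2 fold change of -0.71. The adjusted p of Wasf1 depended on the processing. It was 0.0136 after a second quantile normalization and 0.0257 after array medians were subtracted. Without genes below the 40th percentile it was 0.0263, and without genes of equal values 0.0189. Under every other alternative it was above 0.05.

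Of the other cell type markers, 0 of 7 macrophage, 10 glial, Schwann cell and melanocyte and 6 mesothelial markers passed limma's test (0, 1 and 1 reached an unadjusted p under 0.05). None of the 11 fibroblast markers passed, with 2 higher and 3 lower at an unadjusted p under 0.05. Those were Thy1 and Lum (below background) on the higher side. On the lower side they were Col1a1, Col3a1 and Fn1 (log2 fold changes -0.82, -1.01 and -0.50). All but Thy1 were named after their values were seen. The mesothelial glycoprotein gene Msln was at 9.45, 7.99 and 9.38 on the knockout arrays, against 4.53 and 4.23 on the wild-type arrays (log2 fold change 4.56 ± 0.57, SE; adjusted p = 0.112), while the other 5 mesothelial markers were below background on every array. The adjusted p of Msln was 0.0429 after a second quantile normalization, 0.0499 after array medians were subtracted and 0.0416 without genes of equal values. Mitf and S100b, markers of melanocytes and glia, had log2 fold changes of 0.76 and 0.46, and the endothelial marker Erg of 0.69, all below background. The S100b difference was 0.21 without wild-type replicate 2, and that of Erg 0.29 without knockout replicate 2. The fibroblast matrix gene Dcn varied among the knockout arrays (10.25, 7.61 and 10.44) and was at 11.45 and 11.05 in wild-type cells. Its log2 fold change of -1.82 was -0.91 without knockout replicate 2. In such whole-culture RNA, fewer cells of a type and less RNA per cell cannot be told apart.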

How the data were processed

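Biotin-labelled cDNA from mouse embryonic fibroblasts was hybridised to Affymetrix arrays. Per the submitters' processing notes the authors used Affymetrix Expression Console; its settings were not stated in them. The deposited log2 values, 1 per probe set and array, were used as deposited, and a second deposited table held the same values. Of 28350 main probe sets, 24872 carried 1 symbol, brought up to date through RefSeq names (GRCm38.p6) by accession (22191) or symbol (1940). The brightest probe set by the mean of 5 arrays stood for each of 21563 genes, and each member kept the probe set of its array symbol. In the array annotation, 2759 of 2955 rows that state an NCBIM37 position overlap it. The group contrast was fitted in limma 3.58.1 under R 4.3.3 (lmFit, eBayes, no block, Benjamini-Hochberg over all genes, threshold 0.05). The number of arrays limits the precision.

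Members and gene lists were chosen with earlier results of these data known. Genes were named by rule: members past the threshold or not overlapping and at least 2-fold apart, the 6 brightest per class, Cdh1, Cdh2, Cdh3, Cdh5, Cdh11, Cdh13, Cdh15 and Abcb4, and per list the genes that passed or else the 2 largest without overlap. Other genes named were chosen after their values were seen. On simulated data from the means and spreads of the 21563 genes, shifts of 1, 2 and 4 (log2) were detected by limma in 48.1%, 75.8% and 93.6% of the shifted genes, with 13.2 false calls per simulated set. The shifted genes were drawn at random from those with any spread above 0, including genes whose tied values give small spreads. These shares therefore do not give the chance of detection for the members that varied more. Alternatives were other normalizations, filters, probe set means, prior variances, array quality weights, a block for replicate number, a threshold of 0.01 and leaving out each array; their effect on the lists was chosen to be tried after seeing the data.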

Additional observations from a re-analysis of the deposited data

How the results depend on the processing

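The counts of differing members without overlap (3 higher, 3 lower) were 2 to 3 in each direction over the alternatives run for them. The number of members passing limma's test upward was 0 under each. Downward it was 1 on a second quantile normalization, on subtraction of array medians and with genes of equal values left out, with Pcdhb13 the member in each case. It was 0 in the fit described above, under the other alternatives that kept all arrays, and without any 1 knockout array. Without a wild-type array that group is 1 array and the spread comes from the knockout arrays alone, so no count of members is read from those fits. The median of the non-clustered protocadherins was -0.47 once genes below the 40th percentile were left out, a setting that keeps fewer genes, and that of the clustered ones turned to 0.047 there and to 0.0078 without knockout replicate 2. The pathway lists had 1 gene past the test upward (Snai2) and 0 downward. On quantile normalization these were 2 upward, on median subtraction 2 and 2, without dim genes 2 upward and 1 downward, and without genes of equal values 3 and 2. Each of these upward counts included Wasf1. They were 0 upward at an adjusted p of 0.01, and 0 to 1 in each direction when each array was left out. Over all genes 65 passed; 388 did on quantile normalization, 283 on median subtraction, 270 without dim genes, 359 without genes of equal values, 107 with array weights, 0 at a threshold of 0.01, and between 0 and 334 when each array was left out. The adherens junction list had 14 to 19 genes lower without overlap and a median of -0.46 to -0.29 under every alternative run. Reversed differences were small: Pcdh12 at -0.019 on quantile normalization and on median subtraction, Cdh13 at -0.0074 with the block, and, leaving out an array, Pcdh12 between -0.062 and 0.085, Cdh13 between -0.0074 and 0.37 and Pcdhb15 between -0.031 and 0.12. The cause of these changes was not tested. Replicates 2 and 3 share numbers across groups, and the difference between them correlated at -0.174 across genes between the groups. With the replicate number as a block 0 genes passed over all genes (2317 at an unadjusted p under 0.05), 0 among the members and 0 in the lists, where Snai2 had an adjusted p of 0.351. Signals below background limit what can be said of 50 of the 59 members.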
